A study of Acomys cahirinus and Mus musculus with 6 samples.

Results

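The genes described here encode the proteins from which epidermal cells build their outer shell, and they lie together in the epidermal differentiation complex. All symbols of the count table that start with Lce or Sprr were taken, with Flg, Flg2, Hrnr, Lor, Ivl, Rptn, Crct1 and Lelp1, which gave 34 members of 20381 genes. Lelp1 and 11 further genes that the rule would take from the mouse annotation are not among the symbols of the count table. The 12 are Lelp1, Lce3a, Sprr3, Sprr2a1, Sprr2a2, Sprr2b, Sprr2c-ps, Sprr2e, Sprr2f, Sprr2g, Sprr2i and Sprr2k.

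The cells came from healing ear punches of 2 rodents, profiled by droplet 3′ RNA sequencing in 6 libraries, 1 per group. In the spiny mouse (Acomys cahirinus, labelled wild-type) the 4 groups were injected between days 12 and 15 with DMSO or with an inhibitor of ERK, of ErbB2 or of FGFR1/2/3. In the laboratory mouse (Mus musculus, CD1) 2 groups had beads carrying PBS, or FGF2 and NRG1, placed in the ear on day 10. The sources used here do not give the animals' age or how many went into a library. With 1 library per group there is no replicate error and no test, so ratios and counts below describe these libraries. Intervals are 95% intervals and cover counting error only.

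When a keratinocyte leaves the basal layer it first makes keratins and involucrin, and then, in the granular layer, filaggrin, loricrin and the late cornified envelope (LCE) proteins. Transglutaminases cross-link involucrin, loricrin and the small proline-rich (SPRR) proteins beneath the cell membrane, and the cell dies as a flat, insoluble corneocyte. Filaggrin, filaggrin-2, hornerin and repetin are large S100-fused proteins stored in granules, and SPRR proteins are also known as genes of wounded and stressed epidermis.

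On GRCm38 with GENCODE release M21, all 34 members were found on chromosome 3 between positions 92080271 and 93399442, a stretch of 1319172 bases that starts with Lor and ends with Rptn. Many are recent copies of each other, and this bears on which of them a short read can be assigned to. The first 60 coding bases of 4 LCE1 genes are shown because Lce1b and Lce1f held UMIs (unique molecular identifiers, counted as molecules) in both species whereas Lce1l and Lce1m had none in the spiny mouse. Capitals mark bases that differ from Lce1b.

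Lce1b: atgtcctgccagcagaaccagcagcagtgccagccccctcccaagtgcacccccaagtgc
Lce1f: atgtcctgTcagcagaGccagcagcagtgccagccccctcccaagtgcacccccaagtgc
Lce1l: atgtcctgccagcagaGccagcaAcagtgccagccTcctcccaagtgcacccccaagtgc
Lce1m: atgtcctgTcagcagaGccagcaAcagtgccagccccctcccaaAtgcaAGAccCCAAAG

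These stretches lie on the minus strand at chr3:92656165-92656224 (Lce1b), chr3:92719289-92719348 (Lce1f), chr3:92850490-92850549 (Lce1l) and chr3:93018569-93018628 (Lce1m), all in coding exon sequence. Lce1f differs from Lce1b at 2 of the 60 bases, Lce1l at 3 and Lce1m at 13. The pair Sprr1b and Sprr1a is shown for the same reason, since Sprr1b held the UMIs in the spiny mouse and Sprr1a most of those in the laboratory mouse. Here capitals mark bases that differ from Sprr1b.

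Sprr1b: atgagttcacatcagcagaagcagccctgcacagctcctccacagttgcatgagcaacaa
Sprr1a: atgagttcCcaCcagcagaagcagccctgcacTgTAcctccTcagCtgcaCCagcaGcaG

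They lie at chr3:92437508-92437567 (Sprr1b) and chr3:92484633-92484692 (Sprr1a), on the minus strand, in coding sequence, and differ at 11 of the 60 bases. Over the whole coding sequence Sprr1a and Sprr1b were 78.9% identical, and each LCE1 gene was 59.1% to 95.7% identical to its closest relative. Since the libraries read the 3′ ends of transcripts, the last 300 bases were searched for 60-base windows shared with another gene. Of the 34 members 14 shared at least 1 window. Sprr2a3 shared 75.1% of its windows, with Sprr2a1, Sprr2a2 and Gm37428, so its counts are uncertain. Lce3d shared 39.8%, Lce1b 25.7% and Lce1j 23.2%, while Lce1f, Lce1l, Lce1m, Sprr1a and Sprr1b shared none.

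In the spiny mouse the members split into those with many UMIs and those with none at all. Over 31408 cells and 173594909 UMIs, 12 members held UMIs, with Rptn the lowest at 137, and 22 held exactly 0. No member had between 1 and 9 UMIs. The 22 at 0 are Lor (loricrin), Crct1, Sprr1a, Sprr2a3, Sprr2d, Sprr2h, Lce1a1, Lce1a2, Lce1c, Lce1d, Lce1e, Lce1g, Lce1h, Lce1i, Lce1j, Lce1k, Lce1l, Lce1m, Lce3c, Lce3d, Lce3e and Lce3f. A count of 0 at this depth allows up to 0.0173 CPM (UMIs of a gene per 1000000 UMIs of the same cells). In the laboratory mouse 32 members held UMIs, and Sprr2j-ps and Sprr4, both present in the spiny mouse, were at 0 in 53197518 UMIs.

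Such zeros were more frequent among the members than in the table as a whole: 64.7% of the members and 26.2% of all genes were at 0 in the spiny mouse. Among genes with at least 1000 UMIs in the laboratory mouse the shares were 81.8% (9 of 11 members) and 4.30% (284 of 6606 genes). Of the lists of related genes, none of 15 envelope scaffold and cross-linking genes, 12 filaggrin processing genes, 12 barrier lipid genes and 15 differentiation regulators was at 0, and 1 of 20 other genes of the complex was. The scaffold list also includes the suprabasal keratins Krt1, Krt2, Krt10 and Krt77. The submitters' processing notes name a mouse build only, and how spiny mouse reads were assigned to mouse symbols is not given in the sources used here. A 0 is therefore a count under a mouse symbol, a level in the spiny mouse may be that of a related gene, and no ratio is taken between species.

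**Figure D1:**
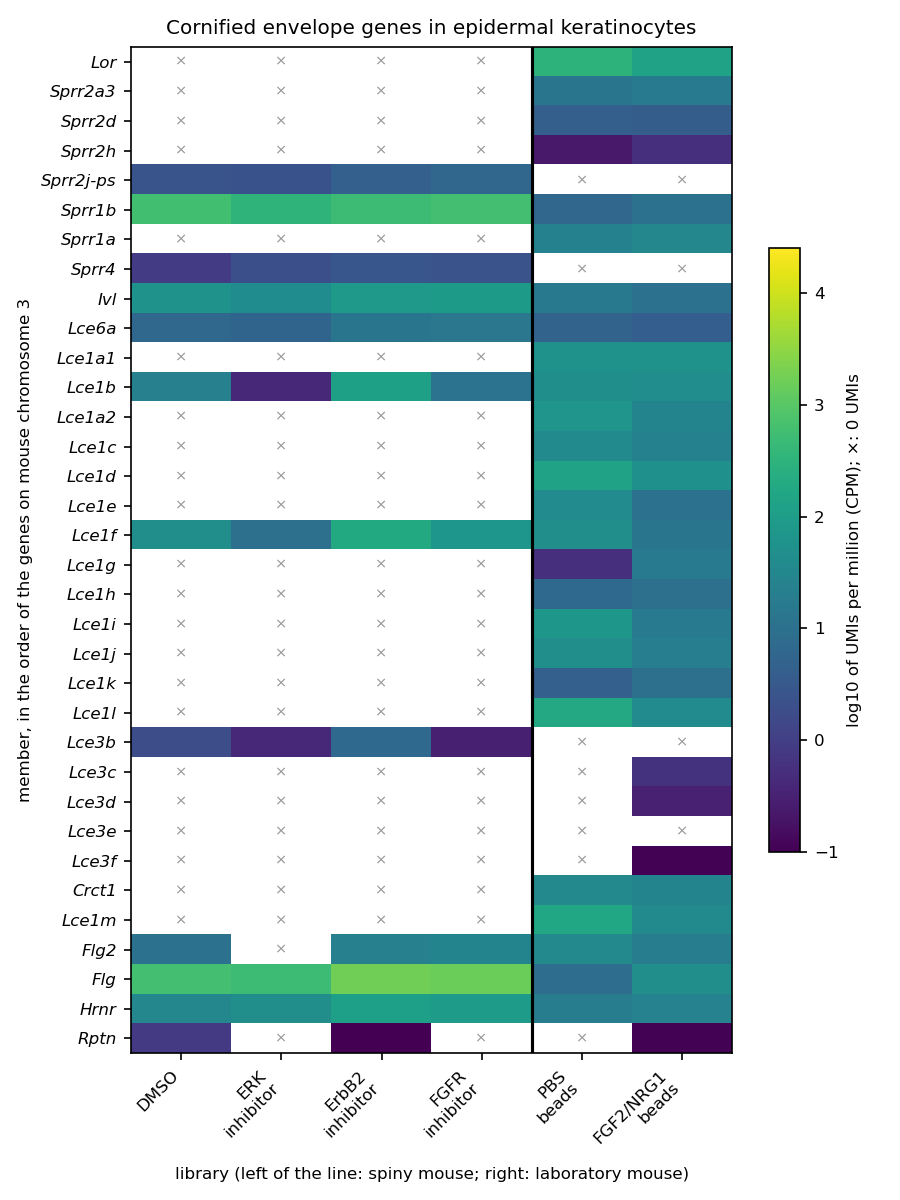
Level of each of the 34 members in epidermal keratinocytes of the 6 libraries, in the order of the genes on chromosome 3, on a log10 scale of CPM, with × where no UMI was counted. The 4 spiny mouse columns show 12 members or fewer, with single bright rows such as Lce1b and Lce1f inside an LCE1 block that is at 0, and the laboratory mouse columns show nearly the whole block.

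Epidermal keratinocytes were taken as the interfollicular epidermis (IFE) clusters of the authors' annotation, without cluster 31, which led with hair follicle genes. This left 21 of 22 clusters and 18454 of 19006 cells. They numbered 8180 in DMSO, 279 with the ERK inhibitor, 5480 with the ErbB2 inhibitor, 2430 with the FGFR inhibitor, 1067 with PBS beads and 1018 with FGF2 and NRG1 beads, holding 4799273 to 47684804 UMIs per library. Across libraries 184 of 39393 cell barcodes occurred more than once. No doublet call was available or made.

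The members made up 0.139% of keratinocyte UMIs in DMSO, 0.0938% with the ERK inhibitor, 0.273% with the ErbB2 inhibitor and 0.247% with the FGFR inhibitor. In the laboratory mouse they made up 0.137% with PBS beads and 0.0706% with FGF2 and NRG1 beads. In every library a few cells held much of this. Cluster 35, annotated as IFE suprabasal, had Lce1l, Lce1i, Lce1d, Lce1m and Lor among its leading genes and the highest summed level of 10 granular layer markers. The cluster led with these genes only through its laboratory mouse cells, 24 of 441, since the spiny mouse had 0 UMIs of each. It held between 5 and 176 cells per library but 37.5% of the keratinocytes' member UMIs in DMSO, 61.4% with the ERK inhibitor, 53.2% with the ErbB2 inhibitor, 62.7% with the FGFR inhibitor, 94.9% with PBS beads and 78.5% with FGF2 and NRG1 beads. Because members are among the leading genes of the cluster, its high level is a description and not a finding.

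**Figure D2:**
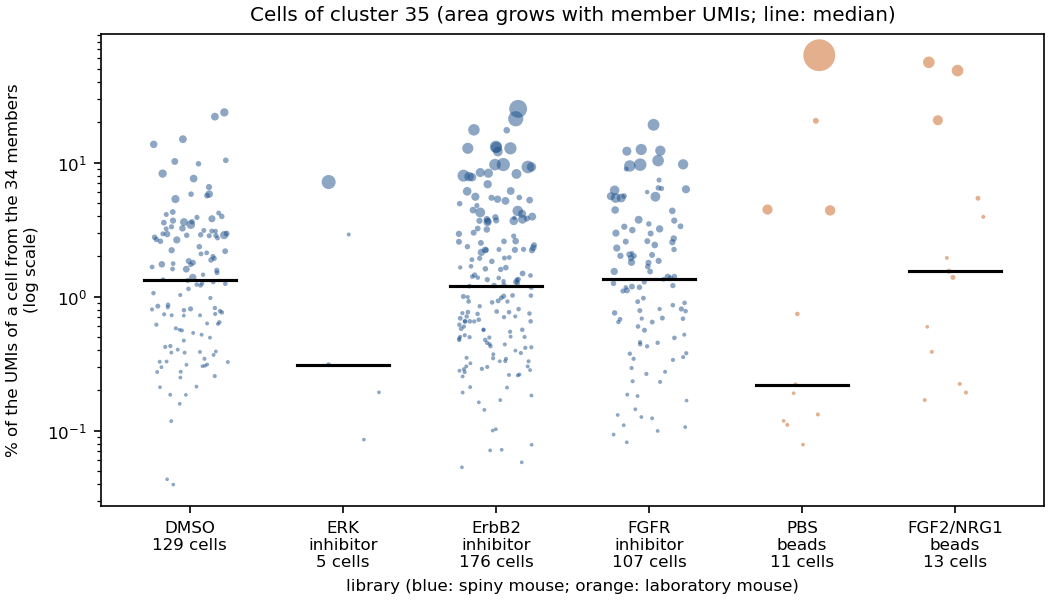
Percent of each cell's UMIs that came from the 34 members, on a log axis, for every cell of cluster 35 by library; the area of a point grows with its member UMIs and the line is the median. The PBS bead library has 1 cell at 63.4% that carries 13836 member UMIs, and the ERK inhibitor library has 5 cells in all.

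Single cells decided the sums in 2 libraries. With PBS beads 1 cell of 21840 UMIs and 923 genes held 77.3% of the keratinocytes' member UMIs and 99.4% of their LCE1 UMIs, and it had UMIs of 21 members. With the ERK inhibitor 1 cell held 56.7% of the member UMIs, among them 97.3% of the Flg UMIs. The highest cell held 25.1% with FGF2 and NRG1 beads, where 3 cells carried 10 or more LCE1 UMIs, against 190 cells with the ErbB2 inhibitor. In DMSO, ErbB2 inhibitor and FGFR inhibitor keratinocytes no cell held more than 3.61% of the member UMIs.

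Member UMIs were also found in cells that should lack these genes. In endothelial cells, 75.4% in DMSO, 79.1% with the ErbB2 inhibitor and 57.5% with the FGFR inhibitor had a member UMI, compared with 6.82% with the ERK inhibitor, 20.8% with PBS beads and 50% with FGF2 and NRG1 beads. Flg was seen in 44.7% of DMSO keratinocytes (median 4428.5 UMIs) and in 44.5% of DMSO endothelial cells (median 1769 UMIs), so this share is at background. The Flg level was 616 CPM in these keratinocytes and 236 CPM in the endothelial cells. For 5 members in DMSO, namely Lce1b, Lce1f, Lce3b, Sprr4 and Flg2, the keratinocyte level was at or below the endothelial level, and the same held for Lce1b and Lce3b with the FGFR inhibitor. Lce1b stood at 22.4 CPM in DMSO keratinocytes and 39.1 CPM in DMSO endothelium, and Lce1f at 47.5 and 60.1 CPM. Averaged over the class, these keratinocyte levels cannot be told apart from background. Summed over the spiny mouse libraries, single clusters stood higher. In all spiny mouse libraries together, cluster 35 had Lce1f at 1164 CPM, Lce1b at 419, Flg2 at 242, Lce3b at 31.7 and Sprr4 at 15.9 CPM. Most of the Lce1b, Lce1f and Lce3b UMIs of cluster 35 came from the ErbB2 inhibitor library, where no member was at or below the endothelial level. Lce3b had no UMI in cluster 35 of DMSO. For Lce1b and Lce3b the summed values therefore do not show a level above background in DMSO or with the FGFR inhibitor. How far background enters the ratios below was not tested.

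Across the epithelium of the spiny mouse, filaggrin and its relatives were highest in the late suprabasal clusters. In all 4 spiny mouse libraries together Flg, the precursor of the keratin-bundling protein filaggrin, reached 17874 CPM in cluster 35 and 7234 CPM in cluster 10, whose leading genes were Krtap3-2, Krtap3-1 and S100g, followed by Flg2, Flg and Hrnr. Per library in cluster 35 Flg stood at 14974 CPM in DMSO, 24367 CPM with the ERK inhibitor, 19938 CPM with the ErbB2 inhibitor and 16779 CPM with the FGFR inhibitor. Hrnr (hornerin) was highest in the same 2 clusters, with 963 CPM in cluster 35, 417 CPM in cluster 10 and 189 CPM in cluster 27. Flg2 (filaggrin-2) was at 242 CPM in cluster 35, 203 CPM in cluster 10 and 196 CPM in cluster 37, and Lce6a at 151 CPM in cluster 35 and 50.5 CPM in cluster 10.

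Sprr1b and Ivl reached further down into the suprabasal layers. Sprr1b, a cross-linked precursor induced in wounds, stood at 2157 CPM in cluster 35, 1535 CPM in cluster 37, 1410 CPM in cluster 27 and 1363 CPM in cluster 9, which led with the wound keratins Krt6b and Krt16. In cluster 9 of DMSO it was seen in 84.7% of cells at 1893 CPM, where Flg was at 156 CPM in 45.5% of cells. Sprr1b in cluster 9 was 562 CPM with the ERK inhibitor, 897 CPM with the ErbB2 inhibitor and 1486 CPM with the FGFR inhibitor. Ivl (involucrin), an early scaffold protein of the envelope, was at 482 CPM in cluster 35, 218 CPM in cluster 10 and 210 CPM in cluster 27. In cluster 27 Ivl was at 209 CPM in DMSO, 200 CPM with the ERK inhibitor, 190 CPM with the ErbB2 inhibitor and 251 CPM with the FGFR inhibitor.

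Some members were highest outside the interfollicular epidermis, in cluster 37. It is annotated as inner root sheath (IRS), the layer that moulds the growing hair. IRS keratins and trichohyalin summed to 102008 CPM there in DMSO and to 67884 and 85462 CPM in the laboratory mouse, but to 6078 CPM in the 22 cells of the ErbB2 inhibitor library, so that library's cells go against the label. Spinous markers summed to 20708 CPM in those 22 cells and to 11999 CPM in the DMSO cells. Cluster 37 as a whole led with cuticle and cortex keratins such as Krt82 and Krt31, of which Krt31, Krt33b and Krt82 were at 0 in its DMSO cells. In all spiny mouse libraries together Lce1f was at 4403 CPM in cluster 37 and 1164 CPM in cluster 35, and Lce1b at 2879 and 419 CPM. In the 91 DMSO cells of cluster 37 Lce1b had 1826 UMIs in 17 cells and Lce1f 2994 UMIs in 27 cells, with 48.0% and 44.3% of them in a single cell. Rptn (repetin) had 92 of its DMSO UMIs there, in 7 cells at 142 CPM, and was at 0.313 CPM in DMSO suprabasal cells. Its next highest cluster over all spiny mouse libraries was cluster 19, annotated as cycling IFE basal, with 25 UMIs at 3.18 CPM.

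Sprr4 was a member of sheath cells in DMSO. It had 110 UMIs in cluster 12, annotated as outer root sheath (ORS), at 70.8 CPM, but in only 11 of 470 cells, and 41.6 CPM in cluster 37. Sprr4 in ORS was 3.85 CPM with the ErbB2 inhibitor and 3.17 CPM with the FGFR inhibitor, from 4 and 3 UMIs. Lce3b, an LCE gene known from injured skin, was found in DMSO sebaceous cluster 36 at 53.3 CPM, with 136 UMIs in 7 of 186 cells, and in cluster 35 of DMSO at 0.

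In the laboratory mouse the order was different by member. Lor, the main protein of the cornified envelope, reached 14798 CPM in cluster 35 of both libraries together and at most 124 CPM, from 3 UMIs, in any other cluster. In cluster 35 Lce1l was at 10554 CPM with PBS, with all 2354 UMIs in 1 of 11 cells, and at 3333 CPM with growth factors, in 4 of 13 cells. Lce1d was at 7523 CPM with PBS, again in 1 cell, and at 4214 CPM with growth factors, and Lce1a1 at 3255 CPM in 1 cell and 4695 CPM in 4 cells. Over both libraries Hrnr was at 1378 CPM, Flg2 at 1873 CPM and Flg at 1045 CPM there. Sprr1a, by contrast, stood at 6805 CPM in cluster 37, 1004 CPM in cluster 12 and 363 CPM in cluster 35.

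Cluster 37 held 2.81% of the cells but 47.1% of the member UMIs with PBS beads, and 4.13% and 67.0% with FGF2 and NRG1 beads. In PBS it carried Sprr1a at 7849 CPM in 22 of 86 cells and Crct1 at 3940 CPM in 13 cells. With FGF2 and NRG1 beads it carried Sprr1a at 6221 CPM in 86 of 211 cells and Crct1 at 1873 CPM in 43 cells. The highest cell held 35.6% of the Sprr1a UMIs and 53.3% of the Crct1 UMIs with PBS, and 17.9% and 51.1% with FGF2 and NRG1. Among the 6 members with at least 30 UMIs in cluster 37 over both libraries, Ivl (log2 ratio of CPM 2.15, interval 1.81 to 2.55) and Sprr1b (4.81, 3.65 to 7.51, 200 against 3 UMIs) were higher by 1.5-fold or more with the growth factors, where 5.99% of 8200 genes were. Crct1 (-1.07, -1.13 to -1.02) and Lce1m (-2.09, -2.96 to -1.35) were lower, where 8.8% of the genes were. For Lce1m 85.7% of the 49 PBS UMIs came from 1 cell.

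Sprr2a3 was highest in cluster 15 at 86.1 CPM and cluster 13 at 58.4 CPM, both IFE suprabasal, and was at 0 in cluster 35. Sprr2d was highest in cluster 27 at 60.4 CPM, and Sprr2h in cluster 37 at 5.16 CPM. Of the LCE3 genes, Lce3c reached at most 31.8 CPM in a cluster of the laboratory mouse, which was 1 UMI, and Lce3b, Lce3d, Lce3e and Lce3f stayed at or below 12.2 CPM.

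**Figure D3:**
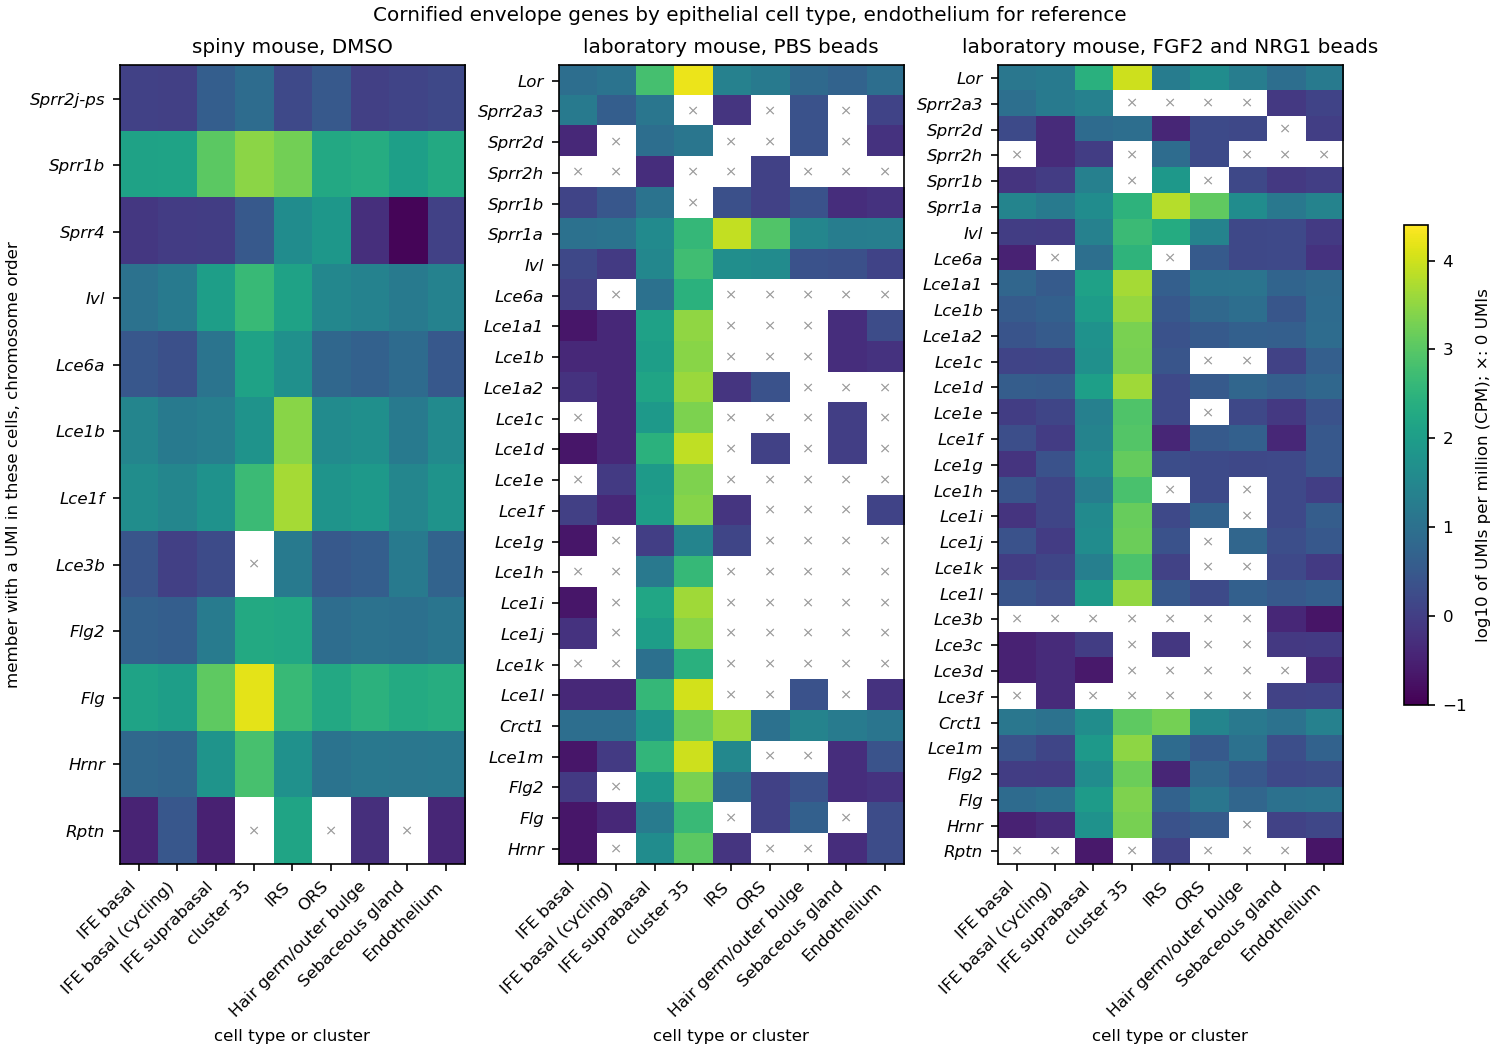
Level of the members in epithelial cell types, cluster 35 and endothelium, on a log10 scale of CPM with × for 0 UMIs, for DMSO (spiny mouse) and both laboratory mouse libraries. Cluster 35 is part of IFE suprabasal. LCE1 rows are brightest in cluster 35 in the laboratory mouse and in the IRS cluster in DMSO, and Sprr1a and Crct1 are brightest in the IRS cluster.

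For the comparison of each inhibitor with DMSO, a member was called higher or lower at a CPM ratio of 1.5-fold or more in keratinocytes, if both libraries together held 30 UMIs. Log2 ratios include a pseudocount of 1 UMI. All 12 members with UMIs in the spiny mouse could be compared. The 3 comparisons share the DMSO library.

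With the ErbB2 inhibitor nearly all members were higher. There were 10 members higher by 1.5-fold or more, where 6.74% of 11769 genes were, and 1 lower, where 10.9% were, and the median log2 ratio over the 12 was 1.26, against -0.08 over all genes. Flg went from 616 CPM in DMSO to 1674 CPM (log2 ratio 1.44, interval 1.42 to 1.46), and Hrnr from 32.2 to 110 CPM (1.77, 1.69 to 1.85). Lce1b went from 22.4 to 117 CPM (2.39, 2.29 to 2.48), Lce1f from 47.5 to 195 CPM (2.04, 1.97 to 2.11) and Lce3b from 1.85 to 7.12 CPM (1.94, 1.60 to 2.31). In endothelium the levels of DMSO and the ErbB2 inhibitor were 39.1 and 92.7 CPM for Lce1b, 60.1 and 107 CPM for Lce1f and 236 and 436 CPM for Flg, so background rose in the same direction, and its part in these ratios was not tested. Sprr4 (1.67), Flg2 (1.07), Sprr2j-ps (0.88), Lce6a (0.86) and Ivl (0.60) were higher too. Sprr1b stayed within 1.5-fold, at 588 CPM in DMSO and 495 CPM with the inhibitor, and Rptn had 39 and 2 UMIs.

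The mix of clusters differed between the libraries, and differences were also found within clusters. Cluster 21, which led with haemoglobin genes, Lce1b and Lce1f, had 149 cells in DMSO and 674 with the ErbB2 inhibitor, and in it Lce1b was at 16.2 CPM in DMSO and 389 CPM with the inhibitor. When the clusters were weighted to the DMSO mix, 5 members were higher and 2 lower, Flg had a log2 ratio of 0.46, and Lce1b kept 1.33 and Lce1f 1.07. Within cluster 35, 5 of 11 members were higher, where 8.19% of 5052 genes were, and 1 was lower, where 14.9% were. There Flg was within 1.5-fold (0.41), Lce1f had 613 UMIs in DMSO and 4300 with the inhibitor (1.89, 1.77 to 2.02), and Lce1b 74 and 2130 (3.91, 3.60 to 4.29). With the inhibitor 2 of the 176 cells held 1426 and 1264 of these LCE1 UMIs, and the highest cell held 30.9% of the Lce1b and 18.2% of the Lce1f UMIs. Lce3b had 0 and 169 UMIs, at least 29.9-fold higher with a floor of 3 UMIs per library, with 60.4% of them in 1 cell, and Sprr1b was lower (-0.61). In cluster 10 Hrnr, Lce1b, Lce1f and Lce3b were higher, 4 of 9 members, where 7.1% of 4481 genes were, and 0 members were lower, where 13.5% were. In the ErbB2 inhibitor library Lce1b was seen in 15.9% of the cells of cluster 35 and in 14.4% of endothelial cells.

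Of the related genes, some passed 1.5-fold in the same library, where 6.74% of all genes were higher and 10.9% lower. Of 9 filaggrin processing genes with enough UMIs 6 were higher and none lower (median 1.12), among them the profilaggrin protease Asprv1 (2.11) and the kallikreins Klk5 (1.33) and Klk7 (1.52), which shed corneocytes. Of 15 scaffold and cross-linking genes 6 were higher and none lower, with Krt2 at 0.68 and Krt1, Krt10 and Krt77 within 1.5-fold. Of 12 barrier lipid genes 4 were higher, Elovl4 (0.90) among them, and of 15 regulators 4, Hopx (0.86) and Cebpb (0.59) among them, with none lower in either list. Of the other genes of the complex 1 of 17 was higher and 9 were lower, such as S100a6 (-0.70) and S100a4 (-0.62).

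With the FGFR inhibitor the filaggrin genes and hornerin were higher, and the LCE genes divided. There were 7 members higher, where 4.64% of 11456 genes were, and 3 lower, where 9.06% were, with a median log2 ratio of 0.85 over the 12 and -0.07 over all genes. Flg was at 1538 CPM (log2 ratio to DMSO 1.32, 1.30 to 1.34), Hrnr at 97.0 CPM (1.59) and Flg2 at 27.6 CPM (1.37). Sprr4 (1.47), Sprr2j-ps (1.30), Lce6a (1.06) and Ivl (0.64) were higher as well. Lce1b was lower at 11.4 CPM (-0.97, -1.17 to -0.78) and Lce3b had 88 UMIs in DMSO and 7 here (-2.47, -4.01 to -1.55). Both were at or below the endothelial level in these 2 libraries. Lce1f (0.56) and Sprr1b (0.07) were within 1.5-fold, and Rptn had 39 and 0 UMIs, at least 6.49-fold lower.

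Weighted to the DMSO mix of clusters, 2 members were higher, and Flg had a log2 ratio of 0.25 and Hrnr of 0.52. Within cluster 35, 4 of 10 members were higher (6.94% of 4739 genes) and 1 lower (10.9%). Flg differed there by 0.16 and Ivl by 0.07, while Flg2 (0.71), Lce1f (0.67), Sprr2j-ps (1.82) and Sprr4 (2.09) were higher and Lce1b lower (-0.72). In cluster 10 no member of 8 was higher (7.6% of 3014 genes were) and Lce1b, Lce1f and Lce6a were lower (11.1%). Cluster 35 made up 107 of 2430 keratinocytes with the FGFR inhibitor and 129 of 8180 in DMSO.

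Of the related genes, 7 of 9 filaggrin processing genes were higher with the FGFR inhibitor and 1 lower, against 4.64% and 9.06% of all genes, with Asprv1 at 1.28, Klk5 at 1.05 and Klk7 at 1.10. Higher were also 5 of 15 scaffold genes, Krt77 (0.97) among them, 5 of 12 barrier lipid genes, such as the lipid transporter Abca12 (0.70), and 3 of 15 regulators, with none lower in these 3 lists. Of 17 other genes of the complex 2 were higher and 6 lower.

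With the ERK inhibitor Lce1b, Lce1f, Lce3b, Flg2 and Sprr1b were lower, and Lce6a was within 1.5-fold (-0.27). In DMSO the keratinocyte levels of Lce1b, Lce1f, Lce3b and Flg2 were at or below those in endothelium (Flg2 10.7 and 12.4 CPM). Sprr1b was above it (588 and 188 CPM). Of the 12 members 1 was higher, where 11.3% of 11095 genes were, and 6 were lower, where 12.7% were, with a median log2 ratio of -0.60 over the members and -0.01 over all genes. Lce1b had 1066 UMIs in DMSO and 2 here (-5.16, -8.79 to -3.89), Lce1f 2265 and 47 (-2.25, -2.73 to -1.86) and Lce3b 88 and 2 (-1.58, -5.21 to -0.25). Flg2 had 509 and 0 UMIs, at least 17.1-fold lower, and Rptn 39 and 0, at least 1.31-fold lower. For Rptn this bound is under 1.5-fold, so it counts among the 6 only through the pseudocount. With counts of 0 set at their bound the median over the members was -0.38, which is within 1.5-fold. Sprr1b fell from 588 to 330 CPM (-0.83, -0.91 to -0.76), with UMIs in 100 of 279 cells. Ivl (-0.37), Flg (-0.30) and Hrnr (0.51) were within 1.5-fold, and Sprr4 was higher with 10 UMIs (1.38, 0.11 to 2.30).

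These values rest on 279 cells, and the Flg value on 1 of them. Without the cell with most member UMIs in each library Flg had a log2 ratio of -5.44, Lce1f -5.50, Lce6a -3.40, Hrnr -0.38 and Sprr1b -0.84. Then 0 members were higher and 8 were lower. Flg was seen in 16 of the 279 cells. In the 44 endothelial cells of that library the levels were low too: Lce1b and Lce1f were at 39.1 and 60.1 CPM in DMSO and at 0 with the ERK inhibitor, and Flg was at 236 CPM in DMSO and 5.18 CPM, from 1 UMI, with the inhibitor. What part background has in these differences was not tested. In the 5 cells of cluster 35, 3 of 8 members were higher (26.4% of 3272 genes) and 3 lower (18.6%). In the 35 cells of cluster 10, 1 of 7 members was higher (24.5% of 2095 genes) and 5 were lower (17.2%), among them Flg with 2720 UMIs in DMSO and 6 here.

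In the IRS cluster the members' levels were set against DMSO too, over 5 to 22 cells of each inhibitor library. With the FGFR inhibitor Lce1b had 1826 UMIs in DMSO and 2 here, and Lce1f 2994 and 4, and 1 of 10 members was higher (30.1% of 2830 genes) and 8 were lower (13%). With the ERK inhibitor Lce1b and Lce1f had 0 UMIs, at least 38.1-fold and 62.5-fold lower by counting error alone, and 2 of 10 members were higher (37.5% of 2452 genes) and 8 lower (18.1%). Hrnr and Lce6a, with 35 and 33 UMIs in DMSO and 0 here, count among the 8 only through the pseudocount. In DMSO a single cell held much of the Lce1b and Lce1f UMIs. Their absence from the 5 cells of the ERK inhibitor library therefore sets no minimum fold. With the ErbB2 inhibitor 6 of 9 members were higher (36.9% of 2698 genes) and 2 lower (8.71%), and 1 cell held 85.9% of 946 Lce1b UMIs. The highest of these 22 cells held 55.7% of their member UMIs. As given above, the 22 cells go against the IRS label, so cells of unlike marker levels are compared here.

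Of the related genes with the ERK inhibitor, no scaffold gene of 15 was higher and 2 were lower, against 11.3% and 12.7% of all genes, and 2 of 9 filaggrin processing genes were higher (Asprv1, 0.86, among them) and 2 lower (Klk7, -1.03, among them). Of 12 barrier lipid genes 3 were higher, Sptlc3 (0.79) among them, and none lower. Of 15 regulators none was higher and 1 was lower, and of 16 other genes of the complex 4 were higher and 5 lower.

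**Figure D4:**
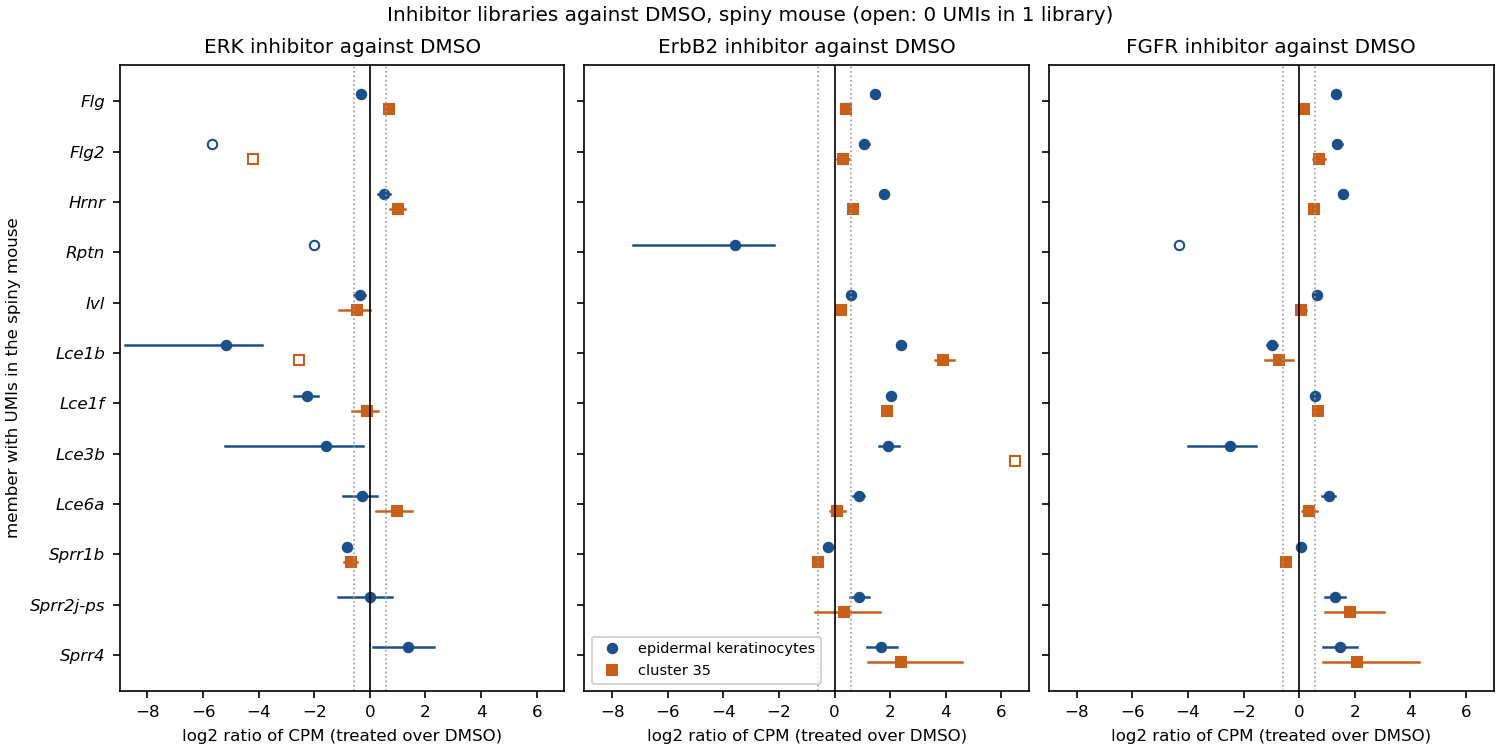
Log2 ratio of CPM against DMSO for the spiny mouse members in epidermal keratinocytes (circles) and cluster 35 (squares), with 95% counting intervals; open symbols have 0 UMIs in 1 library, dotted lines mark 1.5-fold, and ratios of fewer than 30 UMIs are left out. With the ErbB2 and FGFR inhibitors Flg sits at 1.44 and 1.32 in keratinocytes and at 0.41 and 0.16 in cluster 35, whereas Lce1b is on opposite sides of 0.

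In the laboratory mouse, keratinocytes with FGF2 and NRG1 beads had 4 members higher than with PBS beads, where 4.79% of 12058 genes were, and 11 lower, where 3.82% were, of 25 compared. The median log2 ratio was -0.35 over the members and -0.01 over all genes. Lower were Lce1l (180 CPM with PBS and 41.2 CPM with growth factors, -2.12), Lce1m (163 and 37.4 CPM, -2.12), Lce1i (73.2 and 17.2 CPM, -2.08), Lce1e (-1.91), Lce1f (-1.90), Lce1d (-1.31), Lce1a2 (-1.29), Lor (305 and 128 CPM, -1.25), Lce1j (-1.20), Flg2 (-0.85) and Lce1c (-0.65). Higher were Lce1g (7 and 160 UMIs, 4.79, 3.90 to 6.31), Flg (8.32 and 46.3 CPM, 2.47), Lce1k (1.15) and Sprr1b (0.74). Flg had 92.7% of its PBS UMIs in 1 cell. In endothelium Flg was at 1.83 CPM with PBS and 11.4 CPM with growth factors, so background rose in the same direction. With growth factors Flg was seen in 5.89% of keratinocytes and in 5% of endothelial cells. The part of background in the Flg ratio was not tested.

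The lower LCE1 values came from 1 PBS cell. Lce1l was found in 5 PBS keratinocytes, 1 of which held 99.8% of its 2358 UMIs, and in 28 keratinocytes with FGF2 and NRG1 beads, where the highest cell held 40.6% of 392. With growth factors this was 2.75% of keratinocytes (median 9089.5 UMIs), beside 2.02% of endothelial cells (median 4051.5 UMIs). With PBS it was 0.469% of keratinocytes, beside 0.289% of endothelial cells, from 1 UMI. How far background enters these shares and the ratios that follow was not tested. Without the highest cell of each library 17 members were higher and 2 lower. Lce1l then had a log2 ratio of 6.01, Lce1m of 4.02, Lce1d of 6.39 and Flg of 5.98, while Lor (-0.91) and Flg2 (-0.997) were the 2 that were lower. The removal was uneven: the PBS cell held 11680 of 11751 LCE1 UMIs, the growth factor cell 1268 of 3624. Growth factor cells with 1330 and 732 LCE1 UMIs stayed in, so these ratios rest on few cells too. On the PBS side the LCE1 ratios also rest on few UMIs. In PBS, cells with 1316 and 1236 member UMIs, both led by Lor, stayed in. Lor was found in 114 keratinocytes with PBS and 156 with growth factors, and its highest cell held 41.2% and 25.2% of its UMIs. This alternative was chosen after seeing the data. Within cluster 35, with 11 and 13 cells, 5 of 22 members were higher (12.8% of 1439 genes) and 9 lower (11.3%). In cluster 10 the 1 member with enough UMIs, Sprr1a, was lower (-1.33), where 11.4% of 613 genes were and 12.9% were higher.

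Other members stayed within 1.5-fold. Sprr1a was seen in 122 and 163 keratinocytes, at 23.1 CPM with PBS and 31.1 CPM with growth factors (0.43, 0.19 to 0.66). Sprr2a3 was at 12.7 and 17.5 CPM (0.46), Sprr2d at 4.27 and 3.99 CPM (-0.09), Ivl at 15.4 and 10.9 CPM (-0.49) and Crct1 at 34.1 and 26.8 CPM (-0.35). In endothelium Sprr1a was at 20.1 CPM with PBS and 26.1 CPM with growth factors, and Crct1 at 12.8 and 23.8 CPM, and the LCE1 genes were each at or below 7.95 CPM.

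**Figure D5:**
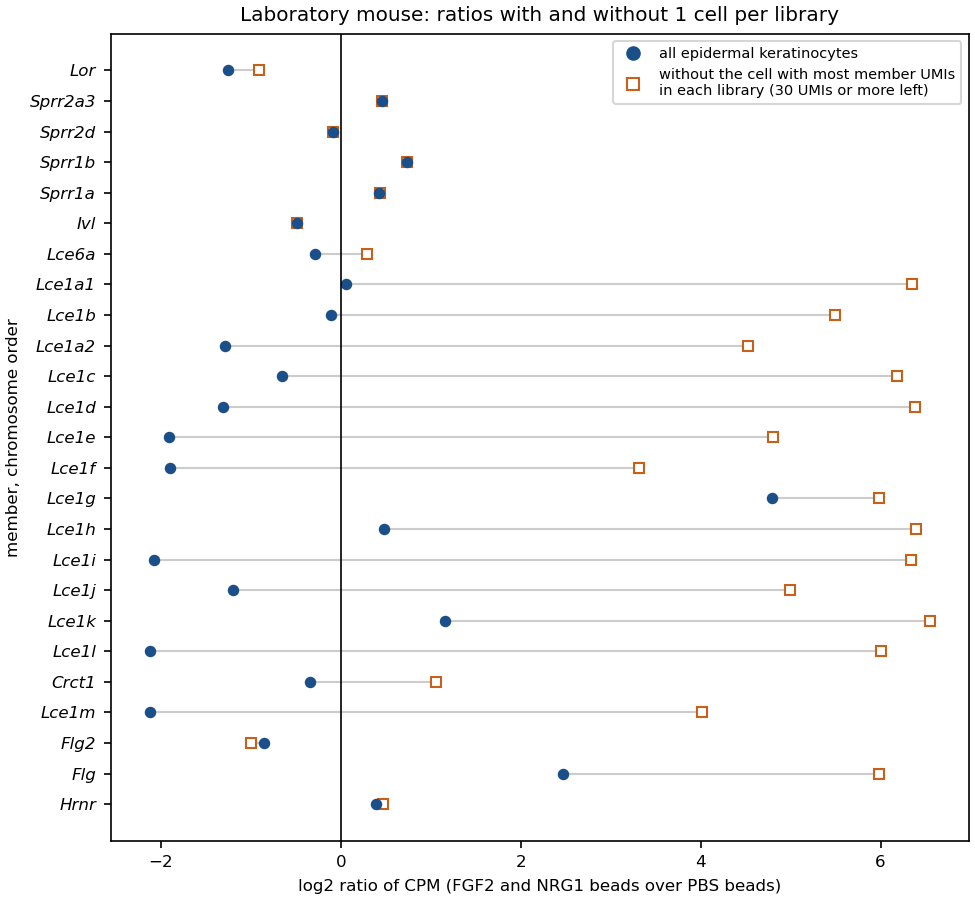
Log2 ratio of CPM, FGF2 and NRG1 beads over PBS beads, for 25 members in keratinocytes (filled) and without the cell with most member UMIs in each library (open, joined by a grey line). The LCE1 genes move from between -2.12 and 4.79 to between 3.32 and 6.55, while Sprr1a, Sprr2a3, Sprr2d and Ivl stay in place. After the removal Lce1h and Lce1k have 0 UMIs left in PBS and the other LCE1 genes have few. All open LCE1 values therefore depend on the pseudocount or on few PBS UMIs. The removed cells held 11680 of 11751 LCE1 UMIs with PBS and 1268 of 3624 with growth factors.

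Of the related genes in the laboratory mouse, 2 of 15 scaffold genes were lower, Krt77 (-1.17) among them, and none higher, against 3.82% and 4.79% of all genes. Of 10 filaggrin processing genes 1 was higher and 2 lower, with Asprv1 at -0.65 and Klk7 at -0.59. None of 12 barrier lipid genes and 14 regulators was beyond 1.5-fold in either direction, and 5 of 15 other genes of the complex were higher and none lower.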

How the data were processed

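The authors' deposited counts are unnormalised UMIs, one column a cell, from 10x Chromium 3′ version 3.1 libraries, and a second deposited table gives each cell's library, cluster and cell type. It also holds the percent of mitochondrial UMIs, computed by the authors per the file headers. Cell Ranger 6.1.1 and the builds mm10 and GRCm38 are named in the submitters' processing notes. How cells were filtered and doublets treated is not stated in the sources, and none was removed here. Counts were summed per library and class and scaled to CPM with Python 3.11.15, NumPy 2.4.6, SciPy 1.17.1 and pandas 2.3.3. Ratios used a pseudocount of 1 UMI, a minimum of 30 UMIs over both libraries and a 1.5-fold threshold, and exact conditional binomial 95% intervals. A count of 0 was bounded with 3 UMIs, which covers counting error only. The method was tested on simulated counts. These varied by counting error only, so the test does not cover UMIs concentrated in single cells.

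The members, gene lists and comparisons were chosen with earlier results of these data known. Members named with values are up to 6 per family with most UMIs, the 5 highest and 5 lowest ratios per comparison, and every member at 0; of each of 5 lists up to 4 genes are named. Members named in sheath and sebaceous clusters were chosen after their values were seen. Sequences and coordinates come from GENCODE M21. Alternatives were another pseudocount, filter, scaling, thinning, averaging or set of cells.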

Additional observations from a re-analysis of the deposited data

How the results depend on the processing

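No paired analysis was possible because each group is 1 library. Of 104 counts of members under the alternatives 75 stayed within 1.5 times the reported count. Higher with the ERK inhibitor (1 reported) were 0 with at least 100 UMIs, 2 as a mean over cells, 3 weighted to the control mix of clusters and 3 in cluster 35 alone, where 3 were lower (6 reported). With the ErbB2 inhibitor (10 higher, 1 lower), 5 were higher in cluster 35, 5 higher and 2 lower under the weighting, and 0 lower with at least 100 UMIs or cells thinned to 1000 UMIs. With the FGFR inhibitor (7 higher, 3 lower), 2 were higher under the weighting and 4 in cluster 35, and 1 was lower with at least 100 UMIs, with thinning, in suprabasal cells alone and in cluster 35. With FGF2 and NRG1 (4 higher, 11 lower), 9 were higher without a filter, 9 higher and 0 lower with thinning, and 14 higher and 0 lower as a mean over cells.

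In alternatives chosen after seeing the data, no member was higher with the ERK inhibitor (0) without the highest cell per library or without cluster 35. Without cluster 35 the FGFR inhibitor gave 4 higher and 5 lower, and FGF2 and NRG1 10 and 0. Without the highest cells FGF2 and NRG1 gave 17 and 2.

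Log2 ratios changed sign as follows. Lce3b with the ERK inhibitor was 0.56 as a mean over cells. Under the weighting Ivl (-0.0742) and Lce6a (-0.13) with the ErbB2 inhibitor and Lce6a (-0.0646) with the FGFR inhibitor turned, and Lce6a was -0.74 without cluster 35. For FGF2 and NRG1, thinning gave Lce1f 0.35, Flg2 1.33, Lce1a2 1.12, Lce1c 1.22, Lce1d 0.80, Lce1j 1.44, Lce1l 0.22 and Lce1m 0.0611. The mean over cells gave Lce1f 0.21, Flg2 1.61, Lce1a2 0.82, Lce1c 1.44, Lce1d 0.91, Lce1e 0.33, Lce1i 0.18, Lce1j 0.90, Lce1l 0.0631 and Lor 0.0596. Without the highest cells Lce1f was 3.32, Lce1a2 4.53, Lce1c 6.18, Lce1d 6.39, Lce1e 4.81, Lce1i 6.34, Lce1j 5.00, Lce1l 6.01 and Lce1m 4.02. Few PBS UMIs of these genes were left after that removal. Without cluster 35 Lce1a2 was 1.80, Lce1d 2.99, Lce1m 2.40 and Lor 0.90. Thinning and averaging over cells give each cell a like weight; otherwise the cause was not tested. With 279 keratinocytes in the ERK inhibitor library and 11 and 13 cells of cluster 35 in the laboratory mouse, single cells limit what can be read.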
